A study of Mus musculus with 20 samples.

Results

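RNA editing was compared between untreated mouse embryonic fibroblasts that lack STAT2 and untreated fibroblasts labelled ADAR1_WT, which are called wild type here. The members of the comparison are the known A-to-I editing sites with at least 50 reads in both STAT2-null and both wild-type libraries: 7265 of the 48425 sites listed, in 302 genes or intergenic loci. The level of a site is its edited reads as a percentage of all reads over it. The series holds 5 fibroblast lines (lacking STAT2, ADAR2, only the p150 form of ADAR1, or all ADAR1, and wild type), each untreated and with interferon, in 2 libraries per line and treatment. The design text speaks of a sixth line, which was not analysed here. The compared groups are STAT2_NULL, untreated (2 libraries), and ADAR1_WT, untreated (2 libraries). No agent or allele other than the STAT2 loss is named for these groups, and the sources used here do not give mouse strain, embryo age, the number of clones or the way the lines were grown. Each genotype is 1 line, ADAR1_WT names the state of ADAR1 only, and nothing calls it the matched parent of the STAT2-null line, so loss of STAT2 and any other difference between the lines cannot be told apart.

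ADAR enzymes deaminate adenosines in double-stranded RNA, and the resulting inosine is read as guanosine in cDNA. ADAR1 is made as a constitutive, mainly nuclear p110 form and as an interferon-inducible, mainly cytoplasmic p150 form, whereas ADAR2, the product of Adarb1, edits a smaller set of sites, many of which change a codon. STAT2 acts in the complex ISGF3, which binds interferon-stimulated response elements; cells without added interferon are known to keep a low, tonic level of type I interferon signalling through this route. The comparison asks what editing looks like in resting cells with and without STAT2. For orientation, the element in the Adar promoter is printed here because it is the kind of sequence that ISGF3 binds; its activity was not measured in these data. The letters GAAANNGAA were searched on both strands of RefSeq promoter windows (GRCm38.p6), and 1 of the 3 windows listed for Adar held them, at 2 places that are shown in capitals within stretches of 30 bases on the plus strand.
Adar, chr3:89730468-89730497: gGAAAAGGAActtcctcacagggcggagag
Adar, chr3:89730738-89730767: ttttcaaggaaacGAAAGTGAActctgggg
The same letters occurred in 2812 of 32851 promoter windows (8.56%), and a match is only a description of the letters.

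The STAT2-null libraries had 5032861 and 5039826 reads summed over sites and 8763 and 8799 sites with at least 50 reads, against 5138827 and 5517435 reads and 7575 and 7671 such sites in the wild-type libraries. The amplicon reads carry no molecular identifiers, so intervals and limits cover counting error only. Whether paired libraries stem from separate cultures is not stated, so p-values rest on a spread between libraries that may be purely technical. Over sites, the 2 libraries of a line differed by more than read counting alone gives, with a chi-square per degree of freedom of 2.02 in STAT2-null cells and 3.6 in wild-type cells. Among sites with a mean level of at least 1%, the median gap between the 2 libraries of a line was 1.05 percentage points in STAT2-null cells and 2.35 points in wild-type cells. The assay reads chosen amplicons and not expression, so neither the loss of Stat2 nor the fibroblast identity of the cells could be checked. No fibroblast or macrophage marker gene on the lists used here had a covered site, and of the neuron markers Gria3 and Htr2c had covered sites.

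Most covered sites showed little editing in either line. Of the 7265 sites, 1301 had no edited read in any of the 4 libraries and 6622 had a mean level under 1%. The remaining 643 sites in 176 loci were tested; of them 514 lay in 3′ UTRs and 2 in 5′ UTRs, 20 would change a codon's amino acid and 5 would not, 64 were intronic, 22 belonged to noncoding RNAs and 16 fell between genes. The lowest read number of a tested site over the 4 libraries ranged from 50 to 6966, with a median of 337. Sites of 1 amplicon share reads, so loci are closer to independent units than sites.

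Editing was lower at more tested sites than it was higher in STAT2-null cells, and the sites past the threshold went both ways. The mean level was lower at 397 sites and higher at 246, and the median difference was -0.751 percentage points. The 2 STAT2-null values were both under the 2 wild-type values at 187 sites (29.1% of those tested) and both over them at 118 sites (18.4%). The mean was at least 10 points lower at 44 sites and at least 10 points higher at 14 sites. At a Benjamini-Hochberg adjusted p under 0.05 by edgeR's quasi-likelihood test, 19 sites in 13 loci differed (2.95% of those tested). Of these, 11 fell in STAT2-null cells (1.71%) and 8 rose (1.24%). At an unadjusted p under 0.05 there were 105 sites, and limma on log odds called 23.

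The number of site calls changed when a library was left out, which leaves 1 library in that line. The log2 odds ratio kept its sign at all 13 named called sites in those fits. It ranged from -10.9 to -10.7 at Gria3 chrX:39007429 (-10.8 with all libraries) and from -8.99 to -4.95 at Ccdc157 chr11:4042049 (-5.9 with all libraries). Without the first STAT2-null library edgeR called 0 sites, with 76 at an unadjusted p under 0.05. Without the second STAT2-null library it called 3, without the first wild-type library 14 and without the second wild-type library 2. A fit on the 4 compared libraries alone, in place of all 20, called 0 sites, with 93 at an unadjusted p under 0.05. The 3 sites kept without the second STAT2-null library were those of Ifi202b, Iws1 and the intergenic position chr13:64391618, all higher in STAT2-null cells.

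**Figure D1:**
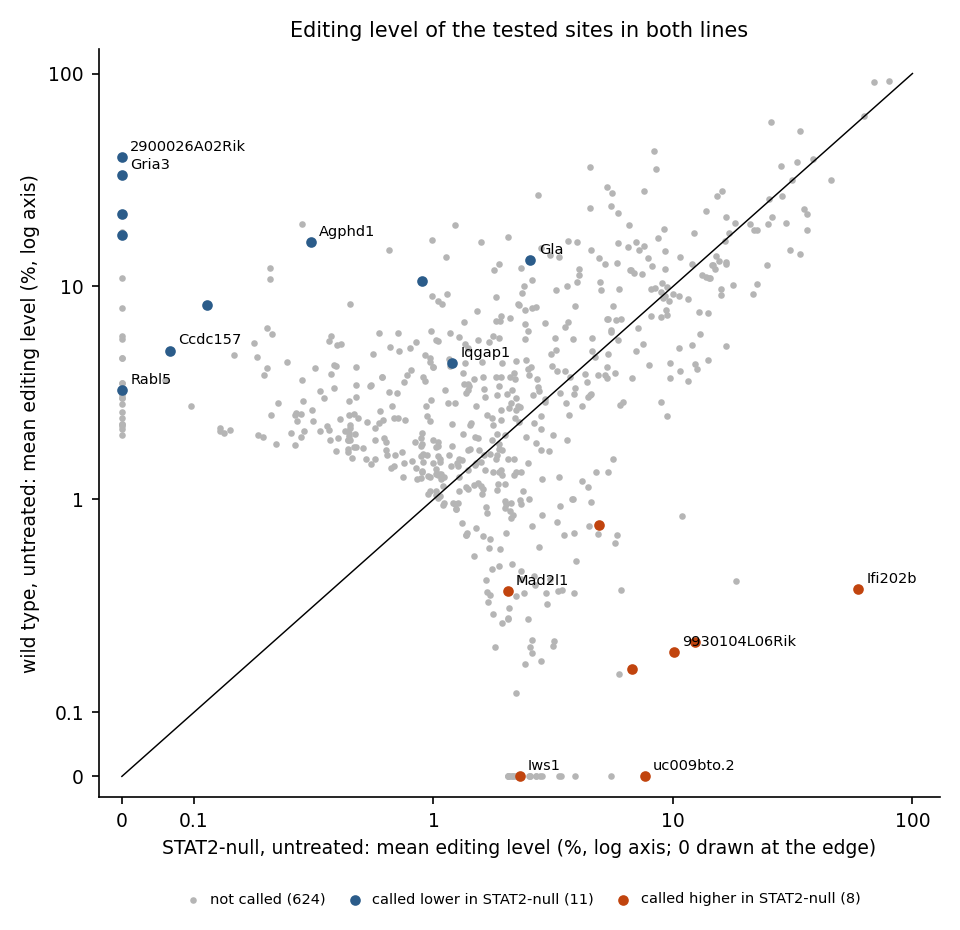
Mean editing level of the 643 tested sites in STAT2-null cells (horizontal, percent, log axis) and in wild-type cells (vertical, percent, log axis), each point 1 site and the mean of 2 untreated libraries; levels of 0 are drawn at the edge and the line marks equal levels. The 11 sites called lower in STAT2-null cells are blue and the 8 called higher are orange, and several of the blue sites, among them those of Gria3 and 2900026A02Rik, had no edited read in STAT2-null cells.

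The mean level over the 643 tested sites was 4.25% and 4.64% in the STAT2-null libraries and 6.08% and 5.83% in the wild-type libraries. Both STAT2-null libraries were below both wild-type libraries. The other untreated lines were lower still: 2.36% and 1.66% in ADAR2-null cells, 1.35% and 1.24% in p150-knockout cells and 1.05% and 0.82% in ADAR1-null cells. Their values had no coverage minimum, and the sites were chosen by their level in the 4 compared libraries. A mean under wild type was thus not particular to STAT2-null cells. The means were 4.44 ± 0.274% in STAT2-null cells and 5.96 ± 0.172% in wild-type cells (SD, n = 2 each), a difference of -1.51 points (SE 0.229). The exact two-sided permutation test gave p = 0.333, the smallest that 2 libraries against 2 can give. The size depended on the level minimum: the difference was -0.0977 points with no minimum, -3.64 points with a minimum of 5% and -0.796 points with the minimum taken over the other libraries. The direction depended on how sites were weighted. Edited reads over all reads at the same sites were 6.67% and 6.90% in STAT2-null cells and 6.87% and 6.39% in wild-type cells, a difference of 0.155 points in the other direction (exact permutation p = 0.667), and those libraries overlapped. When reads are pooled, each site counts by its depth. The Ifi202b site at chr1:175901522, whose value is uncertain as described below, gave 1144 and 1097 edited reads to the STAT2-null libraries. It gave 4 and 16 to the wild-type libraries. The pooled difference without this site was not computed, so the change of direction may rest on it.

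When reads were summed over the tested sites of a locus, 10 of 176 loci differed (5.68% of those tested): 8 fell in STAT2-null cells (4.55%) and 2 rose (1.14%). The loci that fell were Gria3, 2900026A02Rik, Fnbp1, Iqgap1, Rabl5, Gla, AI607873 and the transcript uc012eok.1, and those that rose were Ifi202b and 9930104L06Rik. Ifi202b, Iqgap1, Rabl5 and AI607873 hold 1 tested site each, so their locus test uses the same counts as the site test. Tested as a site, Ifi202b had an edgeR adjusted p of 0.13 in the fit on the 4 libraries alone. Gria3, 2900026A02Rik and Ifi202b were called in all 4 fits that left out 1 library and also in the fit on the 4 libraries alone, with edgeR adjusted p of 0.0262, 0.0162 and 0.0262 there. Fnbp1 was called in 3 of the 4 fits without a library, Iqgap1 and Rabl5 in 2, 9930104L06Rik and AI607873 in 1, and Gla and uc012eok.1 in none. The number of loci called was 6 without the first STAT2-null library, 4 without the second, 8 without the first wild-type library and 8 without the second.

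Gria3 encodes GluA3, a subunit of AMPA-type glutamate receptors of neurons, and its arginine-to-glycine site is a known target of both ADARs. At this site (mm9 chrX:39007429, plus strand, exonic) the level was 0% in both STAT2-null libraries, against 32.4% and 34.2% in the wild-type libraries. The STAT2-null libraries held 844 reads over the site with none edited, and 3 edited reads over that number would be 0.355%. The difference was -33.3 points (SE 0.898, edgeR adjusted p = 0.0107). The groups did not overlap, but the site was called in only 1 of the 4 fits that left out a library. A second Gria3 site in the adjoining intron (chrX:39007465) had 0% and 0.227% in STAT2-null cells and 10.2% and 6.16% in wild-type cells (edgeR adjusted p = 0.0466). It also fell, and these were the only Gria3 sites tested among 13 covered. Over both sites, edited reads made up 0% and 0.113% of all reads in STAT2-null cells, against 25.2% and 25.6% in wild-type cells (edgeR adjusted p = 0.000295 for the locus). The other untreated lines also lay under wild type at the arginine-to-glycine site: 8.32% and 0.919% in ADAR2-null cells, 7.97% and 7.77% in p150-knockout cells and 2.75% and 0.467% in ADAR1-null cells.

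Other known ADAR2-type targets had lower means in STAT2-null cells without passing the test. Cog3 is a subunit of the Golgi tethering complex COG, and its isoleucine-to-valine site (chr14:76119526) had 72.7% and 66.1% in STAT2-null cells, against 92.3% and 90.2% in wild-type cells. The difference was -21.8 points (SE 3.46, edgeR adjusted p = 0.152), with no overlap. The neighbouring synonymous Cog3 site (chr14:76119527) had 7.38% and 4.42% in STAT2-null cells and 25.6% and 18.6% in wild-type cells (edgeR adjusted p = 0.291). Filamin A, which cross-links actin, has a glutamine-to-arginine site edited by ADAR2. The Flna site (chrX:71472201) had 0.513% and 1.46% in STAT2-null cells, against 7.77% and 10.3% in wild-type cells (edgeR adjusted p = 0.244). The groups did not overlap.

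An intronic Flna site (chrX:71471989) had 7.89% and 8.77% in STAT2-null cells and 44.2% and 42.2% in wild-type cells, a difference of -34.9 points (SE 1.08) that did not pass the test (edgeR adjusted p = 0.300). ADAR2 edits an intron of its own transcript, and the most edited of these Adarb1 sites (chr10:76786805) had 6.78% and 10.6% in STAT2-null cells, against 14.1% and 19.7% in wild-type cells (edgeR adjusted p = 0.542). Tmem63b, an ion channel of the TMEM63 family, had at its glutamine-to-arginine site (chr17:45799898) 0.642% and 0.502% in STAT2-null cells and 1.78% and 2.01% in wild-type cells (edgeR adjusted p = 0.480). In the ADAR2-type list as a whole, 6 of 13 genes had a tested site and 14 sites were tested. Of these, 2 were called lower, both in Gria3, and none was called higher, beside 1.71% and 1.24% over all tested sites. The groups were apart with STAT2-null lower at 10 sites (71.4%, beside 29.1% over all tested sites) and higher at 1 (7.14%, beside 18.4%). The median difference over the list was -7.22 points, beside -0.751 points over all tested sites. Its mean level was 7.67% and 7.38% in the STAT2-null libraries and 17.7% and 17.3% in the wild-type libraries. The other untreated lines were under wild type too, without a coverage minimum there. They had 2.26% and 1.6% in ADAR2-null cells, 6.97% and 6.27% in p150-knockout cells and 6.4% and 4.91% in ADAR1-null cells. Being lower than wild type on this list was thus not particular to STAT2-null cells.

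**Figure D2:**
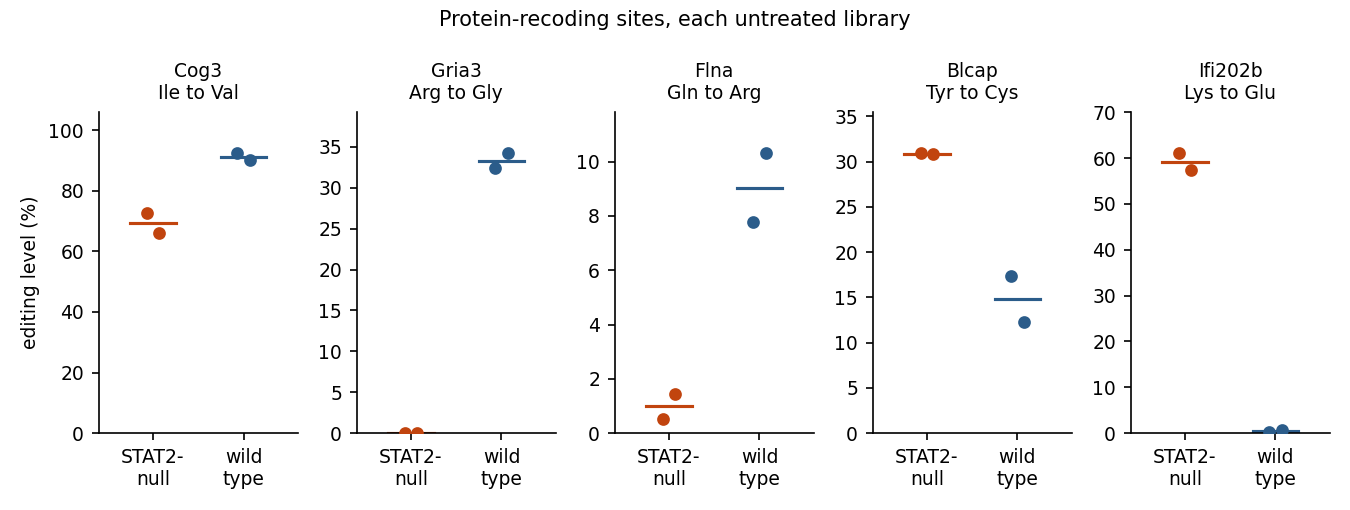
Editing level (percent) of 5 protein-recoding sites, STAT2-null left and wild type right in each panel, with 1 point per untreated library and a bar at the mean; each panel has its own axis from 0. Cog3, Gria3 and Flna were lower in both STAT2-null libraries, Blcap and Ifi202b were higher, and only Gria3 and Ifi202b passed the test.

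Coding targets usually assigned to ADAR1 did not pass the test. Blcap, a small conserved protein linked to bladder cancer, had at its tyrosine-to-cysteine site (chr2:157383885) 30.9% and 30.8% in STAT2-null cells, against 17.4% and 12.3% in wild-type cells. The difference was 16.0 points (SE 2.55, edgeR adjusted p = 0.278), and the libraries of the lines did not overlap. At its glutamine-to-arginine site (chr2:157383876) the levels were 13.7% and 12.1% in STAT2-null cells and 11.4% and 3.73% in wild-type cells (edgeR adjusted p = 0.508). Neil1, a DNA glycosylase that removes oxidised bases, had at its lysine-to-arginine site (chr9:56992115) 3.52% and 0.277% in STAT2-null cells and 0.412% and 0.758% in wild-type cells (edgeR adjusted p = 0.710), with overlap. The third gene on the list, Azin1, had no tested site. Over the 5 tested sites of the list the median difference was 1.31 points, beside -0.751 points over all tested sites, with no site called and the groups apart at 3, lower at 1 and higher at 2, beside 29.1% and 18.4% of all tested sites.

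Across all 20 nonsynonymous sites tested, in 14 genes, 2 were called, Gria3 lower and Ifi202b higher, beside 2.95% called over all tested sites. The groups did not overlap at 13 of the 20, with STAT2-null lower at 7 (35.0%, beside 29.1% over all tested sites) and higher at 6, beside 18.4% over all tested sites. Among the others, a threonine-to-alanine site of the transcript uc008wxi.1 (chr5:31475853) had 21.4% and 21.8% in STAT2-null cells, against 9.97% and 8.51% in wild-type cells (edgeR adjusted p = 0.371). Of 3 tested recoding sites in Ppwd1, a peptidyl-prolyl isomerase, the most edited, serine to glycine (chr13:105018767), had 11.7% and 7.13% in STAT2-null cells and 11.1% and 8.74% in wild-type cells (edgeR adjusted p = 0.972). The Ppwd1 libraries of the lines overlapped at all 3. At the sites in Kcna1 and Son 1 wild-type library stood apart. Kcna1, a potassium channel, had 0.423% and 0.403% in STAT2-null cells and 0.152% and 10.5% in wild-type cells. Son, a splicing cofactor, had 0% and 0.794% in STAT2-null cells and 0% and 10.6% in wild-type cells.

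The greatest rise was at Ifi202b, a member of the interferon-inducible p200 family of DNA-binding proteins. Its lysine-to-glutamate site (chr1:175901522, minus strand, exonic) had 61.0% and 57.4% in STAT2-null cells, against 0.148% and 0.610% in wild-type cells. The difference was 58.9 points (SE 1.82, edgeR adjusted p = 0.00189), on at least 1874 reads in each library, and the groups were far apart. The same position stood high in all libraries of ADAR2-null cells too, with 59.4% and 60.5% untreated, and was at 0.181% and 0.302% in untreated ADAR1-null cells. It was under 50 reads in untreated p150-knockout cells. Interferon-treated STAT2-null libraries had 56.8% and 56.8%, and interferon-treated wild-type libraries 0.0767% and 0.306%. The other 37 covered Ifi202b sites reached at most 0.752% in the 4 libraries. Ifi202b belongs to a family of near-identical genes, and the files do not say how reads shared between copies were counted, so this value is uncertain; a DNA difference between the lines at this position was not tested. AI607873, listed by RefSeq as Ifi207 of the same family, had at a threonine-to-alanine site (chr1:175659129) 0.151% and 0% in STAT2-null cells and 6.23% and 1.04% in wild-type cells. That site was not called (edgeR adjusted p = 0.0684), although its locus, which holds this site alone, was (edgeR adjusted p = 0.0346). The locus lost the call in 3 of the 4 fits without a library.

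Long inverted repeats in 3′ UTRs fold into duplexes that ADAR1 edits at many adenosines, and 6 genes of this kind were examined: 2900026A02Rik, Nt5dc3, Cds2, Rpa1, Mmgt1 and Mad2l1. Of their 72 tested sites 3 were called lower and 2 higher, beside 2.95% called in either direction over all tested sites. The groups were apart at 47, lower in STAT2-null cells at 34 (47.2%, beside 29.1% over all tested sites) and higher at 13 (18.1%, beside 18.4%). The median difference was -1.63 points, beside -0.751 points over all tested sites. The genes did not move as 1 group: the 3 called lower were all in 2900026A02Rik and the 2 called higher were both in Mad2l1.

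2900026A02Rik had the widest drop. Its most edited site (chr5:113516847, minus strand, 3′ UTR) had 0% in both STAT2-null libraries, against 32.5% and 48.7% in the wild-type libraries. The difference was -40.6 points (SE 8.11, edgeR adjusted p = 0.0166), and 0 edited reads of 548 allow a level of up to 0.547%. This site, too, was called in 1 of the 4 fits that left out a library. The sites at chr5:113516841 and chr5:113517027 also had no edited read in STAT2-null cells, against 15.6% and 19.4% at the first and 17.7% and 26.1% at the second in wild-type cells (edgeR adjusted p = 0.0170 and 0.0308). Of the 18 tested sites of the gene, 17 had a lower mean in STAT2-null cells and 14 did not overlap, all lower. Over the locus, edited reads were 0.229% and 0.370% of all reads in STAT2-null cells and 10.7% and 13.5% in wild-type cells (edgeR adjusted p = 0.00172). The other untreated lines were as low, between 0% and 1.54% at the most edited site. Interferon-treated STAT2-null cells had 0% and 2.40% there, against 45.6% and 66.4% in interferon-treated wild-type cells.

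Nt5dc3, which carries a 5′-nucleotidase domain, was lower in both STAT2-null libraries at all 6 tested sites. Its most edited site (chr10:86300002) had 29.1% and 38.8% in STAT2-null cells, against 54.6% and 52.9% in wild-type cells (edgeR adjusted p = 0.409). Summed over the locus the levels were 7.14% and 9.24% in STAT2-null cells and 19.3% and 20.1% in wild-type cells, which missed the threshold (edgeR adjusted p = 0.0586). Cds2, an enzyme of phosphatidylinositol synthesis, had at its most edited site (chr2:132135616) 18.4% and 33.1% in STAT2-null cells and 59.6% and 59.3% in wild-type cells (edgeR adjusted p = 0.315). All 3 tested Cds2 sites were lower without overlap. Rpa1, the large subunit of the single-strand DNA-binding complex RPA, had at its most edited site (chr11:75114517) 77.4% and 81.5% in STAT2-null cells, against 93.9% and 90.8% in wild-type cells (edgeR adjusted p = 0.347). The groups did not overlap at 8 of its 14 sites, lower at 7 and higher at 1. Mmgt1, a membrane protein of the endoplasmic reticulum, had at its most edited site (chrX:53840820) 8.36% and 10.1% in STAT2-null cells and 15.5% and 13.7% in wild-type cells (edgeR adjusted p = 0.699).

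Mad2l1, the spindle checkpoint protein MAD2, went the other way. At chr6:66490261 the level was 4.76% and 5.05% in STAT2-null cells, against 1.01% and 0.509% in wild-type cells, on at least 6960 reads per library (4.15 points higher, SE 0.288, edgeR adjusted p = 0.0278). At chr6:66490201 it was 2.24% and 1.84% in STAT2-null cells and 0.244% and 0.495% in wild-type cells (edgeR adjusted p = 0.0258). Both sites rose and neither overlapped; the first kept its call in 1 of the 4 fits without a library. The most edited site (chr6:66490075) had 45.5% in each STAT2-null library and 29.9% and 33.3% in the wild-type libraries (edgeR adjusted p = 0.619). Of the 29 tested sites in its 3′ UTR, 12 were higher without overlap and 3 lower, 9 had a lower mean, and the locus as a whole had 10.2% and 10.3% in STAT2-null cells against 7.87% and 6.75% in wild-type cells (edgeR adjusted p = 0.453). Neighbouring positions differed in direction: chr6:66490208 had 10.4% and 11.1% in STAT2-null cells and 14.0% and 13.3% in wild-type cells, whereas chr6:66490203 had 11.8% and 12.2% in STAT2-null cells and 3.29% and 7.33% in wild-type cells.

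The remaining called sites lie in genes with various roles. Agphd1 (RefSeq symbol Hykk), a hydroxylysine kinase, had at chr9:54795039 in the 3′ UTR 0.391% and 0.224% in STAT2-null cells, against 13.1% and 19.1% in wild-type cells (edgeR adjusted p = 0.0466). Wild-type libraries with interferon were far apart at this site, at 0.623% and 21.4%. Gla, the lysosomal enzyme alpha-galactosidase A, had at chrX:131123090 in the 3′ UTR 1.99% and 3.09% in STAT2-null cells, against 11.6% and 15.0% in wild-type cells (edgeR adjusted p = 0.0466). Both fell. Of the 16 tested Gla sites 15 had a lower mean, 8 of them without overlap. Ccdc157 had at chr11:4042049 in the 3′ UTR 0% and 0.159% in STAT2-null cells and 5.80% and 4.20% in wild-type cells (edgeR adjusted p = 0.0152). Of its 9 tested sites 5 had a lower mean and 4 a higher one, and the locus was not called (edgeR adjusted p = 0.067). Rabl5 (RefSeq symbol Ift22), a small GTPase-like protein of intraflagellar transport, had at chr5:137388969 in the 3′ UTR 0% in both STAT2-null libraries and 2.54% and 3.98% in wild-type cells (edgeR adjusted p = 0.0278). Iqgap1, a scaffold that binds actin and small GTPases, had at chr7:87857166 in the 3′ UTR 1.56% and 0.841% in STAT2-null cells and 4.61% and 4.10% in wild-type cells (edgeR adjusted p = 0.0368). At none of these did the groups overlap. In the fits that left out a library, the Agphd1, Gla and Iqgap1 sites lost the call each time, and those of Ccdc157 and Rabl5 kept it in 1 of 4.

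Among the sites that rose, 9930104L06Rik had at chr4:124620535 in the 3′ UTR 9.90% and 10.4% in STAT2-null cells, against 0.240% and 0.144% in wild-type cells (edgeR adjusted p = 0.0166). Wild-type libraries with interferon were far apart there, at 10.1% and 0.386%. A second site of that gene at chr4:124620529 had 7.04% and 6.45% in STAT2-null cells and 0.320% and 0% in wild-type cells (edgeR adjusted p = 0.0278). Both were higher without overlap, while the most edited site of the gene, chr4:124621545, overlapped, with 21.3% and 20.5% in STAT2-null cells and 17.0% and 22.4% in wild-type cells. Iws1, a transcription elongation factor that works with Spt6, had at chr18:32262158 in the 3′ UTR 3.10% and 1.48% in STAT2-null cells and 0% in both wild-type libraries (edgeR adjusted p = 0.00636). The transcript uc009bto.2 had at chr6:47897535 in the 3′ UTR 3.57% and 11.7% in STAT2-null cells and 0% in both wild-type libraries (edgeR adjusted p = 0.0216). The STAT2-null libraries of that site were themselves far apart. The other sites of these genes did not all rise. Of the 7 tested uc009bto.2 sites 4 had a lower mean and 3 a higher one, and the locus was not called (edgeR adjusted p = 0.926). Of the 9 tested Iws1 sites 5 had a lower mean and 4 a higher one, and that locus was not called (edgeR adjusted p = 0.929). The first 9930104L06Rik site and the uc009bto.2 site lost the call in all 4 fits without a library. In a single intergenic locus on chromosome 13 the called sites went opposite ways. Position 64391618 had 14.5% and 10.3% in STAT2-null cells, against 0.0974% and 0.328% in wild-type cells (edgeR adjusted p = 0.00189). Position 64391659 had 0.758% and 1.03% in STAT2-null cells, against 10.9% and 10.4% in wild-type cells (edgeR adjusted p = 0.0122).

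In 7 of the 19 called sites both libraries of 1 line held no edited read, 5 times in STAT2-null cells and 2 times in wild-type cells. The called sites were also set beside the untreated libraries of the remaining lines, as a description. Of the 10 sites called lower that had at least 50 reads in all untreated libraries, both wild-type libraries lay above all other untreated libraries, STAT2-null, ADAR2-null, p150-knockout and ADAR1-null alike, at 9 (90.0%), against 26.5% of the 506 tested sites covered as well. Of the 7 such sites called higher, both STAT2-null libraries lay above all other untreated libraries at 6 (85.7%), against 15.4% of the 506. The calls themselves chose sites with high wild-type or high STAT2-null levels, so these shares carry no test. The exception among the sites called lower was Iqgap1, where untreated ADAR1-null cells had 4.33% and 3.78%. That among the sites called higher was Iws1, with 2.46% in 1 untreated ADAR2-null library. Ifi202b was not among these 7 sites, because it was under 50 reads in untreated p150-knockout cells. It had 59.4% and 60.5% in untreated ADAR2-null cells, beside 61.0% and 57.4% in STAT2-null cells, so its rise was not particular to STAT2-null cells.

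**Figure D3:**
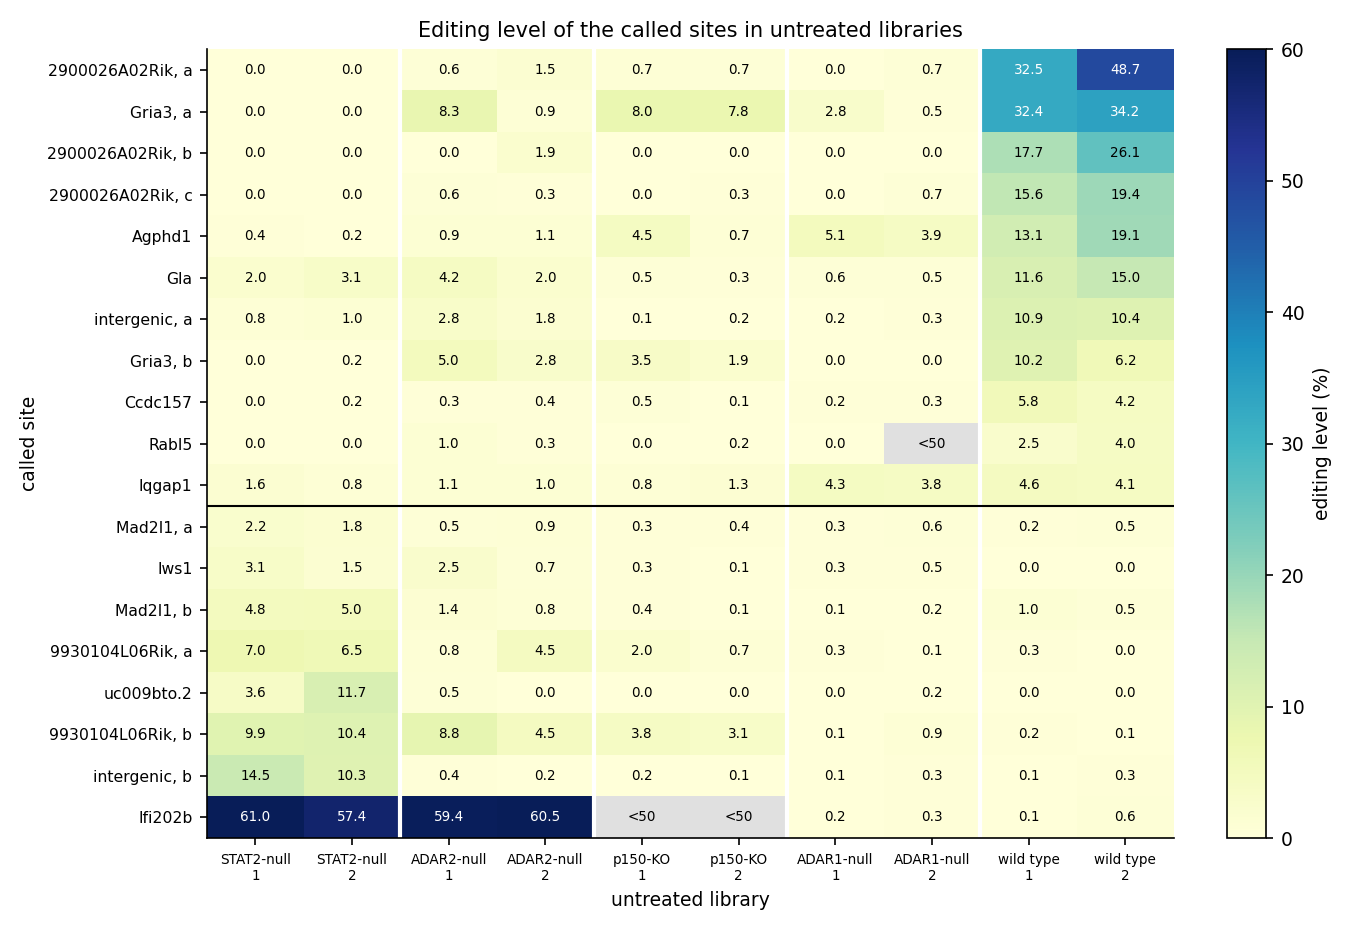
Editing level (percent, colour and printed value) of the 19 called sites in the 10 untreated libraries, with STAT2-null left and wild type right; sites above the black line were called lower in STAT2-null cells, those below it higher, and letters tell sites of 1 gene or locus apart. Grey cells marked <50 had under 50 reads, and the high wild-type values in the upper rows have no counterpart in the other lines except at Iqgap1.

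By locus, the lean toward lower levels was spread over many amplicons. Of the 42 loci with at least 5 tested sites, which hold 406 sites, the median site difference was below 0 in 30 and above 0 in 12. All sites had a lower mean in 3 of these loci, Nt5dc3, Fnbp1 and Cdk7, and in none did all have a higher mean. Fnbp1, a protein that curves membranes and binds formins, had 5 tested intronic sites, all lower without overlap. Its summed level was 2.45% and 1.48% in STAT2-null cells and 10.2% and 11.2% in wild-type cells (edgeR adjusted p = 0.00562). Cdk7, the kinase of the transcription factor TFIIH, had summed levels of 2.11% and 2.29% in STAT2-null cells and 8.49% and 4.64% in wild-type cells over 10 sites (edgeR adjusted p = 0.0586). It missed the threshold. The transcript uc012eok.1 passed it as a locus, with 0.743% and 0.989% in STAT2-null cells and 5.02% and 7.18% in wild-type cells (edgeR adjusted p = 0.0295), though none of its 4 sites was called.

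Loci with higher levels were fewer. The noncoding transcript uc012aji.1 was higher without overlap at 10 of 14 sites and lower without overlap at none. Its widest difference, at chr17:6122608, was 34.2% and 33.4% in STAT2-null cells, against 17.8% and 10.6% in wild-type cells (edgeR adjusted p = 0.253). Ovca2, a hydrolase-like protein, was higher without overlap at 5 of 8 sites, and its summed level was 8.50% and 10.4% in STAT2-null cells and 6.10% and 4.77% in wild-type cells (edgeR adjusted p = 0.243). Neither locus passed the test. Of the 22 tested sites in noncoding RNAs, 12 were higher without overlap (54.5%, beside 18.4% over all tested sites) and 1 lower (4.55%, beside 29.1%), with a median difference of 1.29 points; 14 of them lie in uc012aji.1. The 514 sites in 3′ UTRs had 158 lower (30.7%) and 81 higher (15.8%) without overlap and a median of -0.972 points. The 64 intronic sites had 16 lower (25.0%) and 13 higher (20.3%) and a median of -0.419 points.

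**Figure D4:**
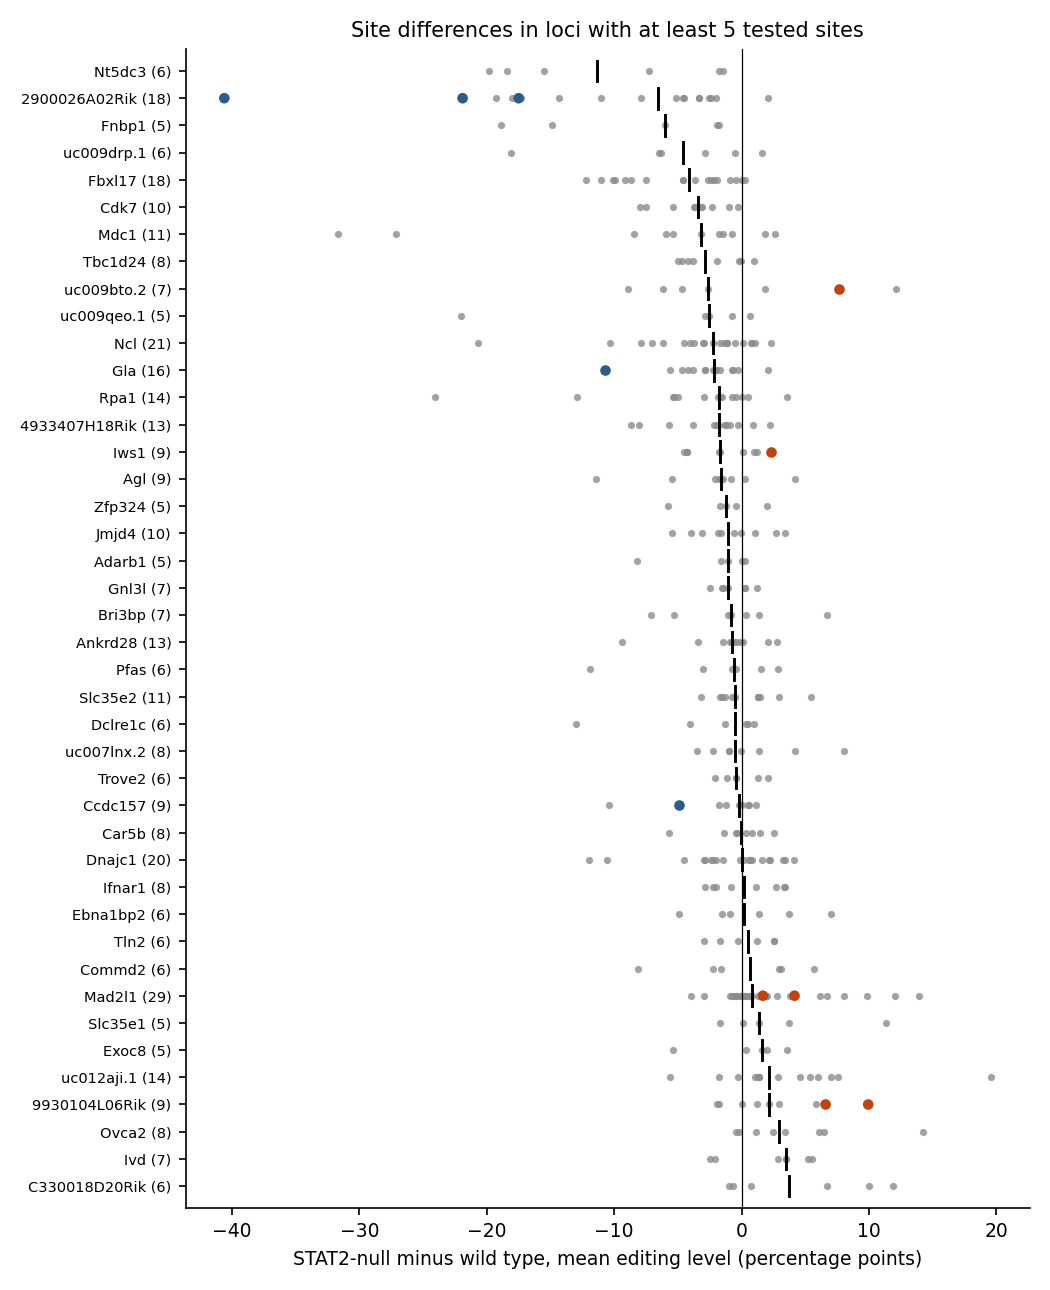
Difference in mean editing level, STAT2-null minus wild type in percentage points, of each tested site in the 42 loci with at least 5 tested sites (number of sites in brackets), ordered by their median, which is the black tick. Blue and orange points are sites called lower and higher in STAT2-null cells, grey points were not called, and most ticks lie left of 0.

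Genes of DNA repair with tested sites were Rpa1, Mdc1, Mlh3 and Neil1. None of their 31 sites was called, beside 2.95% of all tested sites. Without overlap, 12 were lower (38.7%) and 3 higher (9.68%), beside 29.1% and 18.4% over all tested sites, and the median difference was -1.77 points, beside -0.751 points. The widest difference was in Mdc1, a mediator of the DNA damage checkpoint, whose site chr17:35995550 had 3.03% and 6.01% in STAT2-null cells, against 35.0% and 37.4% in wild-type cells (edgeR adjusted p = 0.185). Among genes of the lysosome, secretory pathway and chaperones, 1 of 41 sites was called, the Gla site above, which is near the 2.95% over all tested sites. Of the 41, 15 were lower (36.6%) and 4 higher (9.76%) without overlap. Rragd, a Rag GTPase that relays amino acid supply to mTORC1, had at chr4:33107392 0.484% and 4.99% in STAT2-null cells and 21.9% and 32.1% in wild-type cells (edgeR adjusted p = 0.176). Of 35 sites in genes for RNA-binding, nucleolar and nuclear pore proteins none was called, beside 2.95% of all tested sites. Without overlap 10 were lower (28.6%), near the 29.1% over all tested sites, and 3 higher (8.57%, beside 18.4%). Ncl, the nucleolar protein nucleolin, had at chr1:88245381 5.91% and 9.17% in STAT2-null cells, against 34.0% and 22.4% in wild-type cells (edgeR adjusted p = 0.282). Of 8 sites in cytoskeleton and adhesion genes 1 was called, in Iqgap1, beside 2.95% of all tested sites. Without overlap 5 were lower (62.5%, beside 29.1%) and none higher (beside 18.4%). Flna, described above, is among these genes.

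The interferon pathway itself offered little to test. Of 44 genes on the list, Ifnar1, which encodes a chain of the type I interferon receptor, was the only one with tested sites. Its 8 intronic sites had low, uneven levels: none was called, 1 was higher without overlap and the median difference was 0.148 points. The site with the highest mean, chr16:91490680, had 0% and 2.82% in STAT2-null cells and 0% and 6.82% in wild-type cells (edgeR adjusted p = 0.895). The files list 5 sites in Adar and 2 in Stat2, all intronic, and none of them was tested.

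Sites were then grouped by their levels in the libraries outside the comparison. The figures for each class cover its tested members only. Those members had passed the 1% minimum in the compared libraries, so the figures are not independent of the values compared. The first class holds sites that interferon raised in ADAR2-null cells, with both treated libraries above both untreated ones and means at least 10 points apart. Of its 318 covered members 236 in 69 loci were tested. Of these, 3 were called lower and 1 higher, beside 1.71% and 1.24% over all tested sites. Without overlap, 67 of them (28.4%) were lower and 45 (19.1%) higher, beside 29.1% and 18.4% over all tested sites, and the median difference was -0.763 points. The mean level of the class was 6.75% and 7.43% in STAT2-null cells and 9.08% and 9.17% in wild-type cells. It was 3.4% and 2.49% in untreated ADAR2-null cells, whose libraries defined the class. In untreated p150-knockout cells it was 1.54% and 1.66%, and in untreated ADAR1-null cells 1.13% and 0.928%. The 404 tested sites outside the class with the same coverage had a median difference of -0.752 points and mean levels of 2.81% and 3.03% in STAT2-null cells and 4.35% and 3.90% in wild-type cells.

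The second class holds 13 sites in 11 loci edited by p110, taken as those at least 5 points higher in untreated p150-knockout cells than in untreated ADAR1-null cells. The Gria3 site, lower in STAT2-null cells, was the 1 site called, beside 2.95% called in either direction over all tested sites. Without overlap 6 were lower (46.2%, beside 29.1% over all tested sites) and 3 higher (23.1%, beside 18.4%), with a median of -4.66 points. Malt1, a protease of lymphocyte signalling, was among the higher ones, with 36.6% and 35.9% at chr18:65636731 in STAT2-null cells and 20.6% and 16.2% in wild-type cells (not called). Psma3, a proteasome subunit, overlapped, with 36.3% and 26.5% at chr12:72095616 in STAT2-null cells and 31.7% and 31.5% in wild-type cells. The third class, called edited without ADAR1, holds 5 sites in 4 loci. They are at least 5 points higher in untreated ADAR1-null cells than in untreated ADAR2-null cells, so sites edited alike in both lines fall outside it. The class held the 2 Cog3 sites described above, which were lower without overlap. Its other sites overlapped between the lines, among them the most edited of them, uc012aji.1 chr17:6122636, with 31.3% and 34.7% in STAT2-null cells and 33.5% and 43.8% in wild-type cells.

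**Figure D5:**
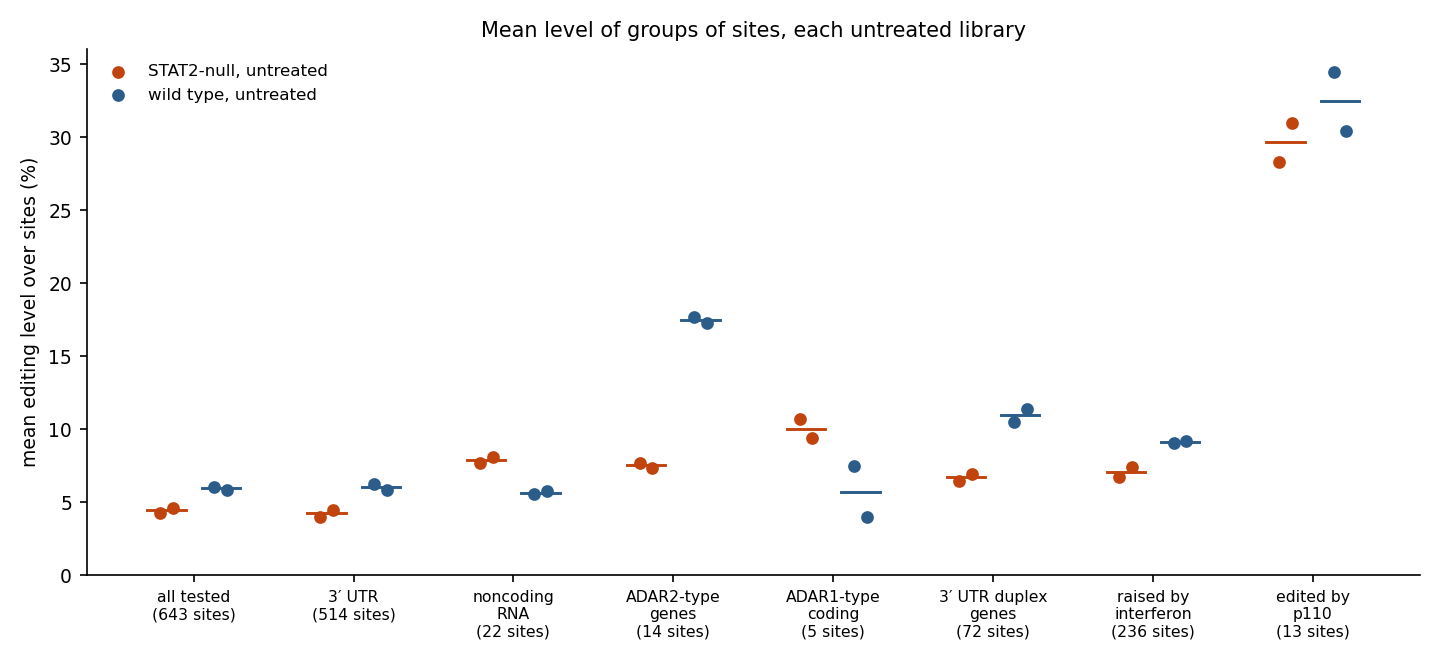
Mean editing level (percent) over the tested sites of each group, with STAT2-null left and wild type right, 1 point per untreated library and a bar at the mean; groups share sites. STAT2-null libraries lie below wild type over all tested sites, in 3′ UTRs, in ADAR2-type genes and at sites raised by interferon, and above it in noncoding RNAs and ADAR1-type coding sites.

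Set beside the interferon-treated libraries, the untreated gap between the lines was small. Over the 643 tested sites the mean level was 4.38% and 4.93% in interferon-treated STAT2-null libraries, close to the 4.25% and 4.64% of the untreated ones. Interferon-treated wild-type libraries had 16.7% and 18.3%, against 6.08% and 5.83% untreated. At the arginine-to-glycine site of Gria3, treated STAT2-null cells had 0.690% and 0% and treated wild-type cells 32.1% and 36.2%. The gap there was -33.8 points with interferon and -33.3 points without. The edgeR interaction term, which compares log odds ratios between the treatments and not gaps in points, did not pass (edgeR adjusted p = 0.523). It was tested at 623 sites and passed at 54 (8.67%). At Rhoa, a small GTPase that controls actin, the untreated lines overlapped (0.994% and 2.23% in STAT2-null cells, 0.816% and 1.43% in wild-type cells), and with interferon the levels were 2.53% and 2.26% in STAT2-null cells and 65.3% and 68.6% in wild-type cells.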

How the data were processed

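Amplicons of 557 loci, made by RT-PCR from RNA of mouse embryonic fibroblasts and indexed with 15 PCR cycles per the labels, were aligned to mm9 with BWA and SAMtools per the submitters' processing notes; versions and filters: not given in the sources used here. For each library the authors deposited a table with coverage and edited reads as counts per site and the level as a fraction per the file headers; the deposited fraction equalled edited reads over coverage to rounding, and levels were recomputed from the counts. Positions are as the files give them (0- or 1-based not stated). Totals of the 4 compared libraries were 5032861 to 5517435 reads, and those of all 20 were 4389326 to 5559674. Edited and unedited counts were modelled with edgeR 4.0.16 (R 4.3.3; modelMatrixMeth, glmQLFit, glmQLFTest, two-sided, all 20 libraries, 1 coefficient per group), at sites with at least 50 reads in the 4 libraries and a mean level of at least 1%, and adjusted by Benjamini-Hochberg over all tested sites or loci (intergenic sites within 5 kb were joined), with a threshold of 0.05. The fit was tested on simulated counts with 1 common dispersion (0.236). It called 3% of sites shifted by 1 log2 odds, 10.4% of those shifted by 2 and 59.1% of those shifted by 4. Of 443 unchanged sites it called 1. A site that was not called can thus still differ. Limma 3.58.1 used log2 odds with 0.5 reads added. Permutation tests were exact (scipy 1.17.1), and Python 3.11.15, pandas 2.3.3, numpy 2.4.6 and matplotlib 3.10.9 made tables and figures. Alternatives were coverage of 20 or 100 reads, other level minimums, the 4 libraries alone, a replicate block, limma, other weightings and leaving out each library.

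Named sites were the widest called difference in each locus (up to 12 a direction), all tested nonsynonymous sites and the most edited tested site of each listed gene; Fnbp1, Cdk7, uc012eok.1, uc012aji.1, Ovca2, Malt1, Psma3 and further sites of named genes were chosen after their values were seen. The site of 1 gene that this rule takes in is not reported here. The members, lists and rules were chosen with earlier results of these data known. Gene symbols are those of the files; of 168 genes, 127 matched a current RefSeq symbol (GRCm38.p6), 13 an older one and 28 none.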

Additional observations from a re-analysis of the deposited data

Results flagged for a closer look

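At 8 of the 53 sites that the naming rule takes in, beside 54 of all 623 sites tested for it (8.67%), the difference between the lines, STAT2-null minus wild type, was not the same untreated and with interferon, by the interaction term of the edgeR fit over all libraries (adjusted p over those 623 sites). That term compares log odds ratios, so its p does not test the gap in points. Equally wide gaps failed it: the differences were 69.1 points apart at Cdh22 (chr2:164937353, edgeR adjusted p = 0.979) and 69.2 at Dnajc18 (chr18:35834187, edgeR adjusted p = 0.192). At Rhoa (chr9:108239461) the difference was 0.488 points untreated and -64.6 points with interferon, 65.1 points apart (edgeR adjusted p = 0.00599). At Sdf4 (chr4:155384775), a calcium-binding protein of the Golgi, the differences were 5.13 and -62.3 points, 67.5 points apart (edgeR adjusted p = 0.00695). At Mmgt1 (chrX:53840820) they were -5.34 and -80.4 points, 75.1 points apart (edgeR adjusted p = 0.0101). At Fubp3 (chr2:31471414), a single-strand nucleic acid-binding protein, they were 2.66 and -66.5 points, 69.1 points apart (edgeR adjusted p = 0.0101). At Gnl3l (chrX:147420072), a nucleolar GTPase, they were 0.273 and -53.5 points, 53.8 points apart (edgeR adjusted p = 0.0175). At Mlh3 (chr12:86576054), a mismatch repair protein, they were -3.28 and -71.8 points, 68.5 points apart (edgeR adjusted p = 0.0336).

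The other two sites were called in the untreated comparison itself. At Gla (chrX:131123090) the difference was -10.7 points untreated and -73.0 points with interferon, 62.3 points apart (edgeR adjusted p = 0.0234). At Iws1 (chr18:32262158) it was 2.29 points untreated and -16.8 points with interferon, 19.1 points apart (edgeR adjusted p = 0.00299), so the line with the higher level was not the same in both treatments.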

How the results depend on the processing

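The number of called sites was 19, and 16 with a replicate block, 17 and 21 with coverage minimums of 20 and 100 reads, 27 without a minimum level, 17 with a minimum level of 5%, 15 with the minimum taken over the other libraries and 23 with limma. The 4 libraries alone gave 0 sites (0 lower, 0 higher; 93 at an unadjusted p under 0.05) and 3 loci (2 lower, 1 higher). Leaving out 1 library gave 0 to 14 sites (0 to 9 lower, 0 to 5 higher) and 4 to 8 loci (3 to 7 lower, 1 to 3 higher). The 19 sites were 11 lower and 8 higher. A minimum level of 5% gave 14 lower and 3 higher sites. The minimum over the other libraries gave 6 lower and 9 higher, so which direction held more calls depended on the level minimum. No minimum level gave 17 loci (5 higher) and limma 1 higher locus. The replicate numbers are shared by the labels only: same-numbered deviations over the 643 sites correlated at -0.0049, and the replicate block called 8 sites in each direction and 10 loci, with 15 of the 19 sites still called. The difference in mean level was -0.0977 points without a minimum level, -3.64 with 5%, -0.796 with the minimum over the other libraries, -1.03 over loci, and 0.155, reversed, for edited over all reads; leaving out a library gave -1.71 to -1.32. The cause was not tested.

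Of the 13 named called sites, 0 were called by the 4 libraries alone and 10 each with the block and limma. None of the 53 named sites reversed there. Leaving out a library reversed the log2 odds ratio of 12 that were not called, with ranges of -4.81 to 1.3 at Kcna1, -5.7 to 3.23 at Son, -1.04 to 2.53 at Neil1 chr9:56992115, -0.187 to 1.01 at Blcap chr2:157383846, -0.838 to 0.13 and -0.515 to 0.275 (0.0755 without the first wild-type library) at Ppwd1 chr13:105018751 and chr13:105018767, -1.88 to 1.22 at Dnajc1, -0.976 to 0.233 at Gla chrX:131123181, -0.0755 to 0.165 at Gnl3l, -5.1 to 4.81 (0.427 without the first STAT2-null library) at Ifnar1, -3.7 to 2.56 at Lsm11 and -0.128 to 1.04 at Rhoa. What read depth limits was not tested; tested sites had at least 50 reads in each compared library.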
